A study of Mus musculus with 9 samples.

Results

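The NIMA-related kinase (NEK) genes were examined by RNA-seq of the whole testis in Rfx2-/- mice and wild type controls. Members were the rows of the deposited count table whose Ensembl ID carries the name Nek1, Nek2, Nek3, Nek4, Nek5, Nek6, Nek7, Nek9 or Nek11 in GENCODE M21, which gave 9 of the 23074 genes. The 2 other genes of the family in the table, Nek8 and Nek10, are given for reference. Of the 9 members, 8 passed the filter on low counts and were among the 15613 genes tested, and Nek5 did not.

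Decapsulated testes were taken from 9 mice at postnatal days 29 to 30 (P30), with 1 library per mouse, from 5 wild type and 4 Rfx2-/- animals. All of them were of a mixed C57BL/6, 129/Sv and FVB/N background. RFX2 is a transcription factor that binds X-box promoter motifs, and the null allele lacks a single exon that encodes most of its DNA binding domain, removed in the germline by a universally expressed, beta-actin promoter driven Cre. The paper describes its mutants of mixed background as keeping the neomycin selection cassette. Spermatids of these mutants stop developing before they elongate, so that the testes compared also differ in the cells they hold. In bulk samples, fewer cells of a type and less RNA per cell cannot be told apart.

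NEK kinases are serine/threonine kinases related to NIMA, a protein required for entry into mitosis in Aspergillus. NEK2 separates the centrosomes by loosening the linker between centrioles, NEK9 activates the closely related NEK6 and NEK7 in spindle assembly, and NEK1, NEK4, NEK10 and NEK11 have been tied to the DNA damage response. Several kinases of the family, among them NEK1, NEK4 and NEK8, act at cilia, whose axoneme has the same plan as that of the sperm tail.

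The values rest on total counts of 13574764 to 15193330 in 8 libraries and 28800855 in Rfx2-/- replicate 1. Levels are CPM, counts scaled to a common library size by the total over the tested genes and its TMM factor, and 1 count was worth 0.0332 CPM in the deepest library and 0.0654 to 0.0780 CPM in the others. The targeted gene was at 549 ± 54.5 CPM in wild type mice (SD, n = 5) and 146.1 ± 59.8 CPM in Rfx2-/- (SD, n = 4), which gave a log2 fold change of -1.91 (SE 0.28, adjusted p by edgeR = 7.81e-04). Rfx2-/- replicate 2 stood apart from the other libraries. Relative to the mean of its own genotype, its genes with under 2 kb of exon had a median deviation of 0.43 and those with over 8 kb one of -0.66 on the log2 scale, against -0.27 and 0.38 in Rfx2-/- replicate 1. Markers of the testis cell types were detected for every type, and none of them was at 0 in all libraries.

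The promoters below are shown because they set the members in the study's list of genes with an RFX2 peak at the promoter, from a separate ChIP experiment on P21 germ cells, beside the member with the largest difference. Nek2, Nek5 and Nek11 are in that list and Nek4 is not. The list holds 2 of the 8 tested members, beside 6.10% of all genes tested. Each RefSeq window (GRCm38.p6) runs from 250 bases before to 50 bases after the start of the gene, in its reading direction, and capitals mark the best match to the X-box, written as the half-sites GTTNCC and GGNAAC with 2 free bases between them.
Nek2, chr1:191821223-191821522, plus strand: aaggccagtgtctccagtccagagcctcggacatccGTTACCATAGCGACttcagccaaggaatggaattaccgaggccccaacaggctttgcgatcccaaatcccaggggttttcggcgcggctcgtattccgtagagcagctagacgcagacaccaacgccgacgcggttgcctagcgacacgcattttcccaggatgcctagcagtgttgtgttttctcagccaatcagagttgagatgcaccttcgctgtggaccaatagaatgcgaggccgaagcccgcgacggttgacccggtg
Nek5, chr8:22125018-22125317, minus strand: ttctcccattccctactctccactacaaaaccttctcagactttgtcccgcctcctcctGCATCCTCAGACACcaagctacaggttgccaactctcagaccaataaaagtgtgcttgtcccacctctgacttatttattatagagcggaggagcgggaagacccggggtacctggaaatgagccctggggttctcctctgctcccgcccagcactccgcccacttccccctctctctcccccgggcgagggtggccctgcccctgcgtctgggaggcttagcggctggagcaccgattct
Nek11, chr9:105395238-105395537, minus strand: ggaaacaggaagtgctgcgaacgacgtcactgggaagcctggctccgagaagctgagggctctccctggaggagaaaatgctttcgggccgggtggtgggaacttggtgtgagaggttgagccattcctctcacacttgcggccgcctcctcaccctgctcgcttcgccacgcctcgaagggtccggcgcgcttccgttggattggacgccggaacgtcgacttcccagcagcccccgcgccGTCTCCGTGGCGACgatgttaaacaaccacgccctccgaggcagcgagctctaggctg
Nek4, chr14:30951127-30951426, plus strand: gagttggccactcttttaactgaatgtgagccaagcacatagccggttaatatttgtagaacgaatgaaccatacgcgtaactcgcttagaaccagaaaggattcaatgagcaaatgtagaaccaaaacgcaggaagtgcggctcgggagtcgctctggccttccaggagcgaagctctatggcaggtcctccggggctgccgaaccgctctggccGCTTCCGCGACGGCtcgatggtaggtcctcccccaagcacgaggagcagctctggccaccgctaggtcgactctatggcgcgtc
The best matches held 8 of the 10 fixed letters in Nek2 and Nek11, and 6 in Nek5 and Nek4. The motif is its own reverse complement, so 1 strand covers both. A match of 8 letters or more was found in 13.9% of 32851 windows of this length and one of 6 letters or more in 99.4%, so the matches in Nek5 and Nek4 do not set these windows apart. The study assigned peaks to promoters over a wider region around the start, so a peak may lie outside the window printed here. The match of Nek2 began 214 bases before its RefSeq start and that of Nek11 began 8 bases before its own. For Nek11 the RefSeq start is at 105395287, whereas the GENCODE start used for its span below is further upstream, at 105395524. Windows were found for 8 of the 9 members, and of the windows not shown Nek6 also held a match of 8 letters, Nek7 and Nek9 one of 7 and Nek3 one of 6.

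In wild type testis the members differed widely in level. Per kb of merged exons, Nek2 was highest at 91.5 ± 5.00 CPM per kb (SD, n = 5) and made up 50.7% of the summed level of the 9 genes. Nek4 followed at 29.1 ± 2.19, Nek9 at 24.3 ± 0.97, Nek1 at 17.4 ± 1.49 and Nek11 at 13.5 ± 2.98 CPM per kb. The remaining members were lower, with Nek3 at 1.95 ± 0.25, Nek7 at 1.95 ± 0.35, Nek6 at 0.493 ± 0.045 and Nek5 at 0.321 ± 0.111 CPM per kb. The ranges of Nek4 and Nek9, of Nek1 and Nek11, of Nek3 and Nek7 and of Nek6 and Nek5 overlapped, although Nek4 exceeded Nek9 in 5 of 5 wild type libraries.

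In Rfx2-/- testis Nek2 again had the highest mean level, at 72.9 ± 26.1 CPM per kb (SD, n = 4). Nek9 came next at 19.97 ± 5.50, ahead of Nek4 at 17.9 ± 2.74, and exceeded it in 3 of 4 libraries, although their ranges overlapped. Nek1 was at 15.2 ± 2.83, Nek11 at 13.9 ± 3.51, Nek7 at 2.06 ± 0.32, Nek3 at 1.78 ± 0.38, Nek6 at 0.418 ± 0.076 and Nek5 at 0.228 ± 0.179 CPM per kb. The share of Nek4 in the summed level was 16.1% ± 0.64 in wild type and 12.8% ± 2.04 in Rfx2-/-, whereas that of Nek2 was 50.7% and 49.3%. These shares were not tested.

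**Figure D1:**
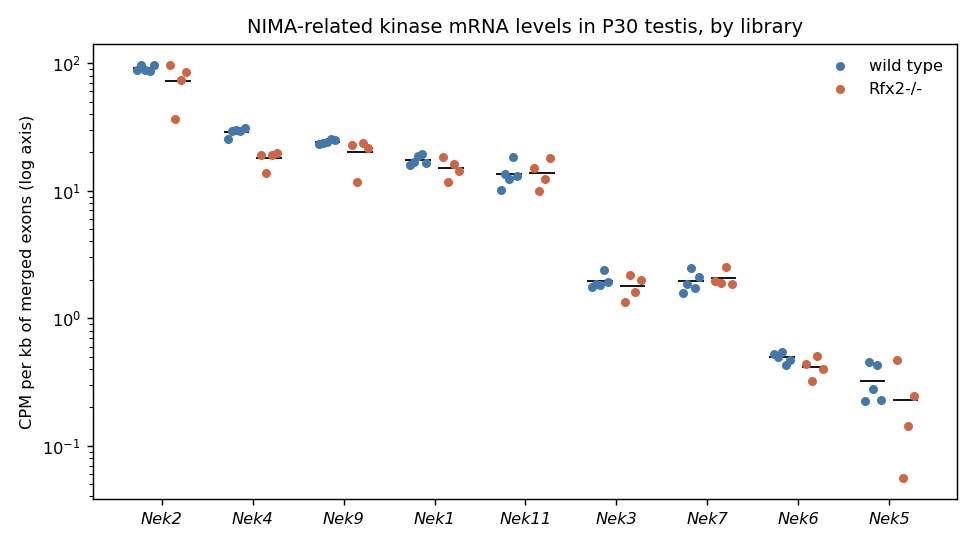
Level of each NEK gene in CPM per kb of merged exons on a log axis, with 1 point per library (5 wild type, 4 Rfx2-/-) and a line at each mean. Nek2 lies highest in both genotypes, and the points of the genotypes are separate in Nek4 but intermingle in the other 8 members.

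None of the members was called lower or higher in Rfx2-/- at an adjusted p of 0.01 and a change of over 2-fold, by edgeR or by DESeq2. Of all genes tested, 3.68% were called lower and 0.826% higher at these limits. At an adjusted p of 0.05 with no limit on the fold, 1 of the 8 tested members, Nek4, fell in Rfx2-/- and 0 rose, against 7.31% of all tested genes that fell and 3.48% that rose. At an unadjusted p of 0.05, again 1 member was lower and 0 were higher by either tool. The 95% intervals of 7 of the 8 members lay within 2-fold of no change in both directions, and that of Nek4 reached just beyond 2-fold on the lower side. The median log2 fold change of the 8 members was -0.22, and 6 were below 0, beside a median of 0.03 over all genes tested. Without Rfx2-/- replicate 2, when Nek5 also passed the filter, the median of the 9 members was -0.096, beside 0.035 over all genes tested.

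Nek4 (ENSMUSG00000021918, chr14:30951377-30988821, plus strand), a kinase linked to primary cilia and the DNA damage response, fell to 61.5% of its wild type level. Its levels in the 5 wild type libraries were 119.6, 138.7, 140.9, 138.3 and 147.1 CPM. In the 4 Rfx2-/- libraries they were 90.00, 64.99, 89.76 and 92.31 CPM. Every Rfx2-/- library was below every wild type library, a separation in this direction found in 9.7% of all genes tested. No member had every Rfx2-/- library above every wild type library, which 6.16% of all genes showed. The means were 136.9 ± 10.3 CPM in wild type mice (SD, n = 5) and 84.3 ± 12.9 CPM in Rfx2-/- (SD, n = 4), with a log2 fold change of -0.70 (SE 0.14, 95% interval -1.01 to -0.39, adjusted p by edgeR = 0.00739). Rfx2-/- replicate 2 was lowest, and without it the other 3 libraries were at 90.7 ± 1.41 CPM, with a log2 fold change of -0.59 (SE 0.10, adjusted p by edgeR = 0.00123). Over 14 alternative analyses the log2 fold change of Nek4 was between -0.75 and -0.57, with adjusted p between 1.73e-05 and 0.0246.

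The other abundant members had overlapping genotypes and did not pass the test. Nek2 (chr1:191821444-191833050, plus strand) was at 286.6, 311.1, 285.1, 279.5 and 314.3 CPM in wild type. Its Rfx2-/- levels were 310.5, 117.5, 237.0 and 276.3 CPM, of which replicate 1 was inside the wild type range and replicate 2 stood far below. The log2 fold change of Nek2 was -0.33 (SE 0.23, 95% interval -0.83 to 0.18, adjusted p by edgeR = 0.375), and -0.10 without Rfx2-/- replicate 2 (adjusted p by edgeR = 0.599). In replicate 2, Nek2 was at 39.8% of the wild type mean, against 80.2% to 105.2% in the other 3 Rfx2-/- libraries.

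Nek9 (chr12:85299514-85339362, minus strand), the activator of NEK6 and NEK7, showed the same arrangement of libraries. It was at 124.9, 127.0, 130.3, 137.8 and 134.0 CPM in wild type and at 124.1, 63.59, 126.4 and 116.3 CPM in Rfx2-/-. Its log2 fold change was -0.28 (SE 0.19, 95% interval -0.69 to 0.13, adjusted p by edgeR = 0.347), and -0.10 without replicate 2 (adjusted p by edgeR = 0.554). Replicate 2 was at 48.6% of the wild type mean of Nek9, and the other 3 Rfx2-/- libraries at 88.9% to 96.6%. The difference in means of Nek2 and of Nek9 therefore rested largely on 1 library, and that of Nek4 did not.

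**Figure D2:**
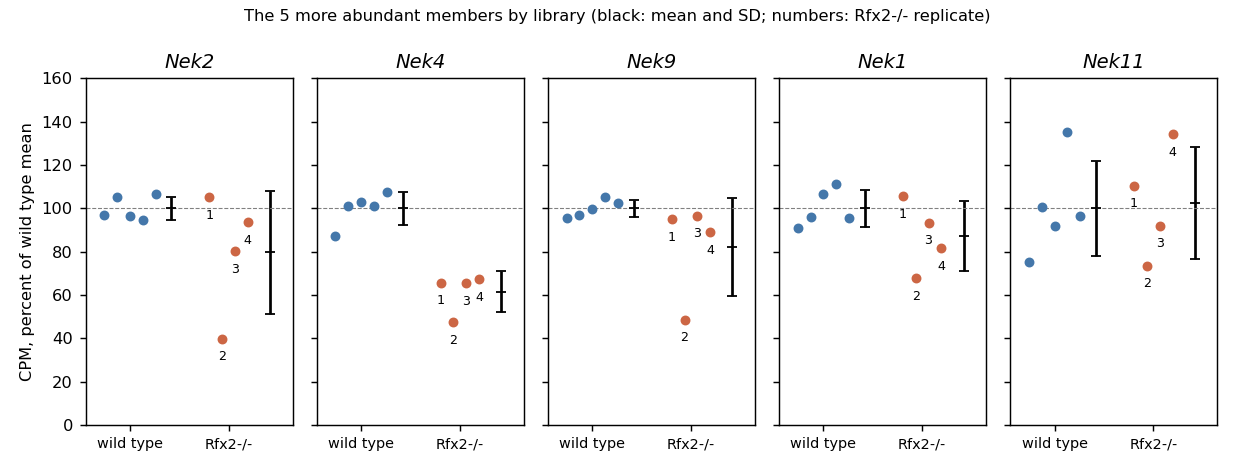
CPM of the 5 more abundant members in each library, as a percent of the wild type mean of the same gene, with 1 panel per gene, 1 point per library (5 wild type, 4 Rfx2-/-, the latter numbered by replicate) and black bars for the mean and SD. Nek4 lies at 65.6% to 67.4% in 3 Rfx2-/- libraries and at 47.5% in replicate 2, which is also the lowest in Nek2 (39.8%) and Nek9 (48.6%).

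Nek1 (chr8:60993195-61131346, plus strand), whose product acts at cilia and in DNA repair, was at 88.93, 93.78, 104.3, 108.8 and 93.33 CPM in wild type. In Rfx2-/- it was at 103.4, 66.26, 91.39 and 79.94 CPM. The genotypes overlapped, with a log2 fold change of -0.20 (SE 0.15, 95% interval -0.52 to 0.13, adjusted p by edgeR = 0.409), and of -0.094 without Rfx2-/- replicate 2 (adjusted p by edgeR = 0.644). Nek11 (chr9:105162156-105395524, minus strand), a kinase of the G2/M checkpoint, was at 32.34, 43.21, 39.49, 58.11 and 41.48 CPM in wild type and at 47.42, 31.56, 39.46 and 57.64 CPM in Rfx2-/-. Its log2 fold change was 0.04 (SE 0.20, 95% interval -0.40 to 0.48, adjusted p by edgeR = 0.923), or 0.17 without Rfx2-/- replicate 2, and the spread between wild type animals was wider than the difference between the genotypes.

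The start of Nek11 lies close to that of Aste1 on the opposite strand (chr9:105395392-105412229), which is also in the peak list and was named after its values were seen. The annotated spans share 133 bases, and the start of Aste1 is inside the Nek11 window printed above. Aste1 fell from 67.2 ± 8.94 CPM in wild type (SD, n = 5) to 44.7 ± 6.86 CPM in Rfx2-/- (SD, n = 4), with no overlap between the genotypes and a log2 fold change of -0.59 (SE 0.15, adjusted p by edgeR = 0.0282). The difference between the changes of Nek11 and Aste1 was not tested. Whether reads were assigned by strand is not stated, and 6.36% of the 50-base stretches of the Nek11 exons also occur in other genes. Of the 953 tested genes of the peak list, 217 (22.8%) fell and 27 rose at an adjusted p of 0.05, and neither Nek2 nor Nek11 was among them.

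Nek6, Nek7, Nek3 and Nek5 formed the low group. Nek6 (chr2:38511643-38594606, plus strand) was at 4.57 to 5.78 CPM in wild type, with a median of 5.34 CPM, and at 4.65, 3.48, 5.45 and 4.32 CPM in Rfx2-/-. Its log2 fold change was -0.24 (SE 0.18, 95% interval -0.62 to 0.14, adjusted p by edgeR = 0.395), and -0.14 without Rfx2-/- replicate 2, its lowest library. Nek7 (chr1:138482875-138620141, minus strand), which also takes part in activation of the NLRP3 inflammasome, was at 8.64, 10.22, 13.56, 9.44 and 11.62 CPM in wild type and 10.83, 10.43, 13.90 and 10.14 CPM in Rfx2-/-. The Nek7 genotypes overlapped, with a log2 fold change of 0.08 (SE 0.17, 95% interval -0.30 to 0.46, adjusted p by edgeR = 0.790).

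Nek3 (chr8:22128283-22166435, minus strand), a kinase described in prolactin receptor signalling, was at 3.59, 3.79, 3.72, 4.87 and 3.98 CPM in wild type and 2.76, 4.48, 3.27 and 4.12 CPM in Rfx2-/-. It had a log2 fold change of -0.13 (SE 0.20, 95% interval -0.57 to 0.30, adjusted p by edgeR = 0.686), or -0.25 without Rfx2-/- replicate 2, with overlapping genotypes. Its neighbour Nek5 (chr8:22073616-22125053, minus strand), linked to centrosome integrity, lies 3229 bases away on the same strand and was barely detected. Nek5 had 7, 14, 10, 14 and 7 counts in the wild type libraries and 34, 2, 5 and 9 counts in the Rfx2-/- libraries, or 0.772 ± 0.266 CPM (SD, n = 5) and 0.548 ± 0.430 CPM (SD, n = 4). The 2 counts of Rfx2-/- replicate 2 are under the floor of 3 counts, and the counting error and spread of the Nek5 values leave only a large difference detectable. In a fit of all genes with at least 1 count its log2 fold change was -0.36 (SE 0.48, adjusted p by edgeR = 0.673). It was -0.42 by DESeq2, -0.062 without Rfx2-/- replicate 2, -0.17 without replicate 3 and -0.33 without replicate 4. Rfx2-/- replicate 1 was at 146.2% of the wild type mean of Nek5, and replicates 2, 3 and 4 at 17.3%, 44.1% and 76.2%. A fit of Nek5 without replicate 1 is not given, so the effect of its high value is not shown.

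**Figure D3:**
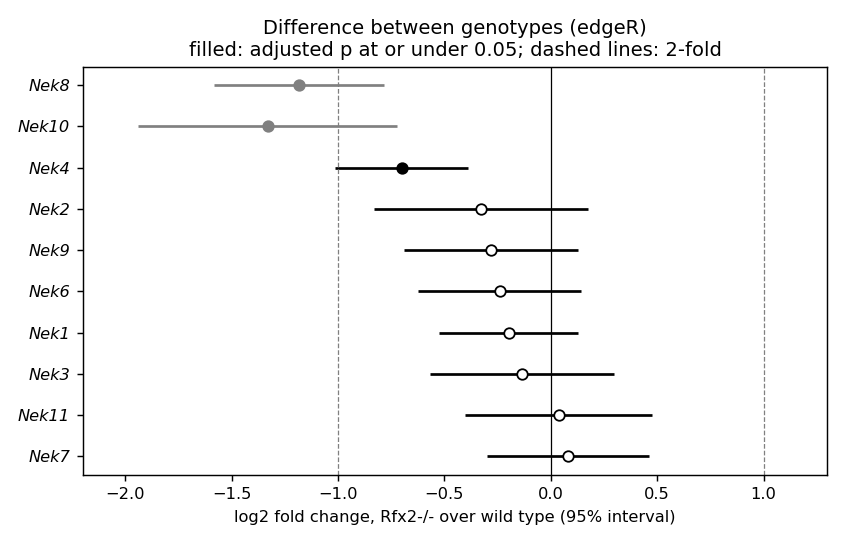
Log2 fold change (Rfx2-/- over wild type) of the 8 tested members in black and of Nek8 and Nek10 in grey, with 95% intervals from edgeR, filled symbols at an adjusted p of 0.05 or below and dashed lines at 2-fold. Among the members, the interval of Nek4 (-1.01 to -0.39) lies wholly below 0 and the other 7 include 0.

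Nek8 and Nek10, the family genes outside the set, were both called lower. Nek8, a kinase of the inversin compartment of cilia, was at 27.36 ± 1.499 CPM in wild type mice (SD, n = 5) and 12.0 ± 3.25 CPM in Rfx2-/- (SD, n = 4), which gave a log2 fold change of -1.18 (SE 0.18, adjusted p by edgeR = 0.00108). Nek10, which acts in motile cilia and the DNA damage checkpoint, had a log2 fold change of -1.33 (SE 0.28, adjusted p by edgeR = 0.00850). Their difference from the 9 members was not tested.

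Members that act together or have related kinase domains were compared within each library as the ratio of their levels per kb, for 6 pairs. With 5 and 4 libraries the smallest two-sided p of the exact permutation test is 0.0159. The log2 ratio of Nek6 to Nek7 was -1.96 ± 0.25 in wild type (SD, n = 5) and -2.30 ± 0.17 in Rfx2-/- (SD, n = 4), a difference of -0.34 (exact permutation p = 0.0317, 0.190 after adjustment over the 6 pairs). That of Nek9 to Nek7 differed by -0.42 (exact permutation p = 0.0794, adjusted 0.238) and that of Nek9 to Nek6 by -0.08 (exact permutation p = 0.619, adjusted 0.743). The ratios of Nek1 to Nek3, Nek1 to Nek5 and Nek3 to Nek5 differed by -0.07, 0.54 and 0.61, with exact permutation p-values of 0.810, 0.333 and 0.460. Without Rfx2-/- replicate 2 the differences were -0.26 for Nek6 to Nek7, -0.22 for Nek9 to Nek7, 0.043 for Nek9 to Nek6, 0.15 for Nek1 to Nek3, 0.17 for Nek1 to Nek5 and 0.018 for Nek3 to Nek5. Leaving out Rfx2-/- replicate 1 instead gave larger differences for the Nek5 ratios, at 0.88 for Nek1 to Nek5 and 1.18 for Nek3 to Nek5. The other differences were then -0.38 for Nek6 to Nek7, -0.52 for Nek9 to Nek7, -0.14 for Nek9 to Nek6 and -0.30 for Nek1 to Nek3. No pair passed after adjustment, but a single pair that differed could not go below an adjusted p of 0.0952 in this design.

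The genes that act with the members were taken from 5 lists of 38 genes in all. Of these, 1 fell and 2 rose at an adjusted p of 0.05 (2.63% fell, beside 7.31% of all genes tested), none was called at the stricter limits, and their median log2 fold change was 0.014. Among 6 genes of the centrosome linker that NEK2 dissolves, 1 fell and 0 rose, with a median of -0.21 (-0.025 without Rfx2-/- replicate 2). The gene that fell was Lrrc45, which encodes a linker protein, with a log2 fold change of -0.66 (adjusted p by edgeR = 0.0402). Lrrc45 passed at an adjusted p of 0.05 in only 6 of the 15 fits compared, and over all 15 its adjusted p reached 0.104. Among 9 regulators and kinetochore substrates of NEK2, 1 rose and 0 fell, with a median of 0.39 (0.22 without Rfx2-/- replicate 2). That gene was Ndc80, a core subunit of the outer kinetochore, at 35.3 ± 1.77 CPM in wild type mice (SD, n = 5) and 51.7 ± 7.61 CPM in Rfx2-/- (SD, n = 4), with a log2 fold change of 0.55 (adjusted p by edgeR = 0.0180). Ndc80 passed at an adjusted p of 0.05 in 12 of the 15 fits.

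None of the 9 genes of the NEK9, NEK6 and NEK7 spindle pathway passed at an adjusted p of 0.05, and their median was 0.10. Of the 8 DNA damage partners of NEK1, NEK4 and NEK11 that were tested, none passed either, with a median of -0.02. Among the 7 ciliary partners, with a median of -0.04 (0.070 without Rfx2-/- replicate 2), 1 gene rose and 0 fell. Rpgrip1l, a transition zone gene whose product binds NEK4, rose from 80.5 ± 9.18 CPM (SD, n = 5) to 133.7 ± 13.64 CPM (SD, n = 4), with a log2 fold change of 0.73 (adjusted p by edgeR = 0.00376), and passed in 15 of the 15 fits. Its paralogue Rpgrip1, named after its values were seen, had a log2 fold change of -0.54 (adjusted p by edgeR = 0.154). Without Rfx2-/- replicate 2, 2 partner genes fell and 3 rose, with Cfap410 (listed as 1810043G02Rik, -0.58) and Anks6 (0.86) added to the 3 above.

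**Figure D4:**
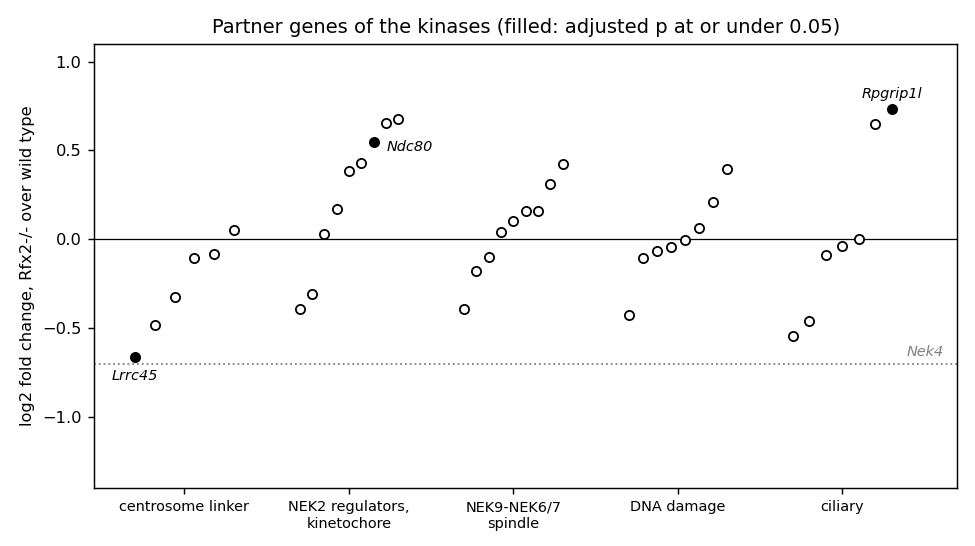
Log2 fold change (Rfx2-/- over wild type) of each gene in the 5 partner lists, in increasing order within a list, with filled, named symbols at an adjusted p of 0.05 or below and a dotted line at the value of Nek4 (-0.70). Lrrc45 (-0.66) is filled below 0, and Ndc80 (0.55) and Rpgrip1l (0.73) above it.

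Markers of some germ cell stages, not of all, differed between the genotypes. They were counted at the adjusted p of 0.05 that 7.31% of all tested genes passed as lower and 3.48% as higher. Of 12 genes listed for elongating spermatids 5 fell and 0 rose, with a median log2 fold change of -0.66. Their summed level was 9048 to 19076 CPM in wild type and 7333 to 12102 CPM in Rfx2-/-. The list is not limited to cells that elongate, since the paper places Tnp1 and Tnp2 mRNA in late round spermatids. It also describes both mRNAs as not reduced in the mutant. Here Tnp1 had a log2 fold change of -1.12 (adjusted p by edgeR = 0.0416) and Tnp2 one of -0.77 (adjusted p by edgeR = 0.0927). Neither was called at the stricter limits. Of 10 meiotic prophase genes 2 rose (Sycp2 and Smc1b, of the chromosome axis and cohesin) and 0 fell, with a median of 0.63 and summed levels of 1640 to 2099 and 2256 to 4258 CPM. Without Rfx2-/- replicate 2, 8 elongating spermatid genes fell, with a median of -0.76, and 2 meiotic prophase genes rose, with a median of 0.28, beside 1539 genes that fell and 777 that rose of 15745 tested. Of 10 round spermatid genes 2 fell, with a median of 0.04 (0.022 without replicate 2), and of 8 late spermatocyte genes 1 fell, with a median of -0.07. Of 9 Sertoli cell genes 1 rose, and no gene of the spermatogonial, Leydig, peritubular or macrophage lists passed. The part of cell composition in the fall of Nek4 was not tested.

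By the likeness of their profiles over the 9 libraries, measured as the root mean square difference of log2 CPM centred on the wild type mean, the genes closest to Nek4 among 12829 were Phtf1 (0.0856), Cdkl2 (0.0918) and Myo1c (0.106), beside a median of 0.561. Closest to Nek2 were Chrnb2 (0.0567), Arhgef10 (0.0570) and Nat10 (0.0624), beside a median of 0.539. Closest to Nek9 were Dgkd (0.0275), Gak (0.0457) and Ano10 (0.0538), beside a median of 0.457. For Nek2 and Nek9 these profiles include the low value of Rfx2-/- replicate 2.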

How the data were processed

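RNA was sequenced from 9 testes. The authors deposited raw counts of reads for each gene, in whole numbers and not normalised. According to the methods and the submitters' processing notes, reads were mapped to GRCm38 with STAR 2.4, those with several positions were discarded, and reads were counted with featureCounts 1.4.6 over merged exons of protein coding isoforms, leaving out reads shared by exons of different genes. Single reads of 50 bases are described, although another length and aligner are given elsewhere, and the use of strand is not stated. Counts of genes that share sequence or overlap another gene can therefore be low or mixed: 5.58% of the 50-base stretches of Nek2 exons occur in an antisense gene, and Nek6 and Nek11 overlap Psmb7 and Aste1.

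Groups follow the genotype labels. Replicates are separate mice, and chi-square per gene was 4.52 to 32.1 between wild type libraries. Between Rfx2-/- libraries it was 18.7 to 36.3 in pairs without replicate 2 and 100.1 to 210.0 in pairs with it. Names came from GENCODE M21 (96.6% of IDs matched). The quasi-likelihood test of edgeR 4.0.16 (R 4.3.3, TMM, filterByExpr, robust) was fitted with genotype as the factor over all libraries, with Benjamini-Hochberg adjustment over 15613 genes, and was tested on simulated data. The limits of 2-fold and 0.01 are those of the study, applied here to the adjusted p. Pair ratios used 0.5 counts as pseudocount and the exact two-sided permutation test of scipy 1.17.1. Likeness was computed over genes with a mean of at least 50 counts, for the 3 members with the largest absolute change. Alternatives were DESeq2 1.42.0, total counts, RLE factors, no filter, removal of a length trend, a test against 2-fold, and leaving out each library. All members are named, and from each partner list the genes that passed at an adjusted p of 0.05. A gene of the partner lists is not reported here. The floor is 3 counts, which covers counting error only. The members and lists were chosen with earlier results of these data known.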

Additional observations from a re-analysis of the deposited data

Results flagged for a closer look

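In 2 of the 18 groups of libraries examined (9 members, each in wild type and in Rfx2-/-), the lowest library lay far from the rest by Dixon's gap test at 95%, which chance gives in about 1 of 20 groups (0.9 of 18). Nek4 was at 65.0 CPM in Rfx2-/- replicate 2, a gap of 0.907 of the range of the group. Nek9 was at 63.6 CPM in the same library, a gap of 0.84 of the range. Without that library Nek4 had a log2 fold change of -0.59 (adjusted p by edgeR = 0.00123) and Nek9 one of -0.10 (adjusted p by edgeR = 0.554). The length-dependent shift of this library (0.43 for genes with under 2 kb of exon and -0.66 for those with over 8 kb) was measured beside these values, and its part in them was not tested.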

How the results depend on the processing

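Over all results and alternatives, 203 values kept their direction and their side of the threshold (for counts of genes, stayed within 1.5 times), 2 counts of genes increased by more than that and 7 values changed sign. With the limit on the fold dropped and adjusted p at 0.05, 1 member, Nek4, was counted as lower in place of 0. Leaving out each library in turn gave 0 to 0 members called lower or higher at the stricter limits. Changes of sign occurred only in members and pairs near 0: Nek3 reached 0.019 without Rfx2-/- replicate 1 (range over left-out libraries -0.25 to 0.019), and Nek11 was at -0.050 without wild type replicate 1 and -0.089 without Rfx2-/- replicate 4 (-0.089 to 0.17). The log2 ratio of Nek1 to Nek3 was 0.12 with the length trend removed, and 0.15 and 0.022 without Rfx2-/- replicates 2 and 4 (-0.30 to 0.15), and that of Nek9 to Nek6 was 0.043 without replicate 2 (-0.14 to 0.043). The cause of these changes was not tested. Total counts in place of TMM moved the median of all genes from 0.03 to 0.16 and the calls from 575 lower and 129 higher to 483 and 191. Nek4 still passed at an adjusted p of 0.05. DESeq2 called 731 lower and 211 higher, and a test against 2-fold 272 and 29. Without Rfx2-/- replicate 2, an alternative added after seeing the data, 2 partner genes fell in place of 1 and 3 rose in place of 2. No paired analysis was possible because the labels give animal numbers but not litters. The study used littermates of matched age where it could, so whether any of these mice shared a litter is unknown. Counts of 2 to 34 limit what can be said of Nek5.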

Other observations

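The level of Nek4 relative to Nek1 and to Nek11 was below the wild type range in every Rfx2-/- library. Relative to Nek9 and to Nek2 it was below that range in all Rfx2-/- libraries but replicate 2. These are values without a test. Per kb, Nek4 was at 1.52 to 1.88 times Nek1 in the 5 wild type libraries and at 1.04 to 1.38 times in the 4 Rfx2-/- libraries, and at 1.60 to 2.49 and 1.08 to 1.53 times Nek11. Relative to Nek9 it was at 1.096 to 1.26 times in wild type and at 0.830, 1.17, 0.813 and 0.908 times in Rfx2-/-, where the value inside the wild type range was that of replicate 2. Relative to Nek2 it was at 0.286 to 0.339 times in wild type and at 0.199, 0.379, 0.260 and 0.229 times in Rfx2-/-, where replicate 2 lay above the wild type range.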
